A study of Mus musculus with 68 samples.

Results

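The genes that write, copy, remove and protect DNA methylation were followed through mouse somatic cell nuclear transfer (SCNT) embryos and through fertilized blastocysts with knocked-down Max or Mcrs1. The 10 genes were Dnmt1, Uhrf1, Dnmt3a, Dnmt3b, Dnmt3l, Tet1, Tet2, Tet3, Tdg and Zfp57. They were chosen by symbol out of 24421 reference genes, and the transcript abundances in TPM (transcripts scaled to a fixed total per library) of all rows with the same symbol were summed in each of 68 gene tables. TPM divides the reads of a gene by its length and scales them to the library, so that levels of different genes are compared per length.

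In mammals a methyl group is added to cytosine, mostly where it stands before guanine (CpG). DNMT3A and DNMT3B place new marks, helped by DNMT3L, which has no catalytic activity of its own. DNMT1 copies the marks onto the new strand after replication, brought there by UHRF1, which reads DNA methylated on the old strand alone. TET1, TET2 and TET3 oxidize the mark, TDG cuts out the oxidized bases, and ZFP57 binds methylated imprinting control regions and keeps them methylated while the rest of the early embryo's genome loses methylation. Oocytes are known to use their own first exons for several of these genes, among them the oocyte form of Dnmt1 and the oocyte transcript of Dnmt3l, whereas somatic cells use a start farther inside the gene.

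Libraries of 3 kinds were compared. The nuclear donors were untreated cumulus cells (CC, n = 3). The 53 SCNT libraries came from enucleated MII oocytes of BDF1 mice that had received a cumulus cell nucleus, were activated with strontium in the presence of cytochalasin B and were grown in G-1 PLUS medium. They were taken at 6 and 14 h post activation (6 hpa and 14 hpa), at the early and late 2-cell (E2C and L2C), 4-cell (4C) and 8-cell (8C) stages and as morulae, and blastocysts were split into trophectoderm (TE) and inner cell mass (ICM), with n = 6 each except for 4C with n = 5. The other 12 libraries were ICM and TE of fertilized blastocysts that had been injected at the zygote stage with a morpholino (MO) against Max, a partner protein of MYC, or against Mcrs1, a nuclear scaffold protein, with n = 2 for each lineage and treatment. Their controls are labelled untreated, whereas the treatment protocol names a random control morpholino. The study's figure legend also gives a control morpholino for these libraries, at a higher concentration than either targeting morpholino. The part of this difference in dose was not tested. Per the study's methods the fertilized embryos came from another mouse strain than the SCNT oocytes. Each reaction used 10 blastomeres, so that a difference between groups cannot tell fewer cells of one kind from less RNA per cell. The labels do not say whether replicates came from separate batches of embryos, and p-values measure only the spread between these libraries.

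Read counts are not given, and the bases aligned per library, estimated from the deposited coverage and FPKM, were 1.00 to 5.17 gigabases. Each table lists reference genes beside loci assembled from that library, which overlap them, and the summed TPM of reference genes was 81.8% to 82.5% of that of the assembled loci in CC, 30.4% to 90.9% in SCNT embryos and 85.5% to 94.4% in the morpholino set. Of the markers, the 8 cumulus genes summed to 1474 to 2286 TPM in CC and the 6 oocyte genes to 4010 to 7965 TPM at 6 hpa, against 0.0158 to 2.23 TPM of oocyte genes in CC. In SCNT blastocysts the 9 ICM markers summed to 363 to 985 TPM in ICM and 88.9 to 389 TPM in TE, and the 8 TE markers to 2052 to 8522 TPM in ICM and 5151 to 16257 TPM in TE. The SCNT libraries numbered 1 to 3 stood apart from those numbered 4 to 6. In ICM, for example, 6177 to 6771 genes reached 1 TPM in replicates 1 to 3 and 9011 to 10032 in replicates 4 to 6. Calls that ended within 1 of these sets, or without one library, are given with their value there. In the morpholino set, control ICM replicate 1 held 16317 TPM of TE markers, close to the 18697 and 20864 TPM of control TE, against 647 TPM in control ICM replicate 2.

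For 2 members the outermost ends of the deposited loci moved between annotated starts, and the promoter sequences at these starts are shown. Windows of 300 bases (250 before to 50 after the start) are from RefSeq on build GRCm38.p6, read 5′ to 3′ on the strand of the gene, with every CG in capitals. The first 3 windows belong to Dnmt1, on the minus strand of chromosome 9, at the oocyte start (chr9:20959839-20960138) and at both somatic starts (chr9:20952930-20953229 and chr9:20952574-20952873). The last pair belongs to Dnmt3l, on the plus strand of chromosome 10, at the outermost start (chr10:78042037-78042336) and the middle start (chr10:78049592-78049891).
Dnmt1 oocyte start: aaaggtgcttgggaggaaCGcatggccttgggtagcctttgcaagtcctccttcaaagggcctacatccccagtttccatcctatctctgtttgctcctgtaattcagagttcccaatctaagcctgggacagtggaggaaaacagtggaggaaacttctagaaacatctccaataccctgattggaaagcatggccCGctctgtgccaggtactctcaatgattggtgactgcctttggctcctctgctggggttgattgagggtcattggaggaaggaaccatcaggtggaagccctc
Dnmt1 somatic start, outer: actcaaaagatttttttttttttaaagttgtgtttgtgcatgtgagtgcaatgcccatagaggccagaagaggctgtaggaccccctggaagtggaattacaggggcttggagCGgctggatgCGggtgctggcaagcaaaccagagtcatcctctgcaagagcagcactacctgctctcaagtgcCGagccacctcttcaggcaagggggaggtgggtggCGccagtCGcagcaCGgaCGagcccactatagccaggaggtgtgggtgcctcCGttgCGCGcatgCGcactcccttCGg
Dnmt1 somatic start, inner: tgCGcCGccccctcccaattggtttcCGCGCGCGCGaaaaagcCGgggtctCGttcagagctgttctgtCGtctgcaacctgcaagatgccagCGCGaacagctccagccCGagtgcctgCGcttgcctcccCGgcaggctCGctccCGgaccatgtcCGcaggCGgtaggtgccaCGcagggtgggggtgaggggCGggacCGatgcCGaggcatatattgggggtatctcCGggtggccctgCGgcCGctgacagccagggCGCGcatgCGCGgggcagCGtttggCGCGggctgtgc
Dnmt3l outermost start: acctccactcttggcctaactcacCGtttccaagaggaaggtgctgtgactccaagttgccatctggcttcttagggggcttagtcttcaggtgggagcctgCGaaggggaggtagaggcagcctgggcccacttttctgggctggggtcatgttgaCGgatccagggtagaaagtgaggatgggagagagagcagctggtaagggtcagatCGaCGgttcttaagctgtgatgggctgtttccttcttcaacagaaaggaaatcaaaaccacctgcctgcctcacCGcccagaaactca
Dnmt3l middle start: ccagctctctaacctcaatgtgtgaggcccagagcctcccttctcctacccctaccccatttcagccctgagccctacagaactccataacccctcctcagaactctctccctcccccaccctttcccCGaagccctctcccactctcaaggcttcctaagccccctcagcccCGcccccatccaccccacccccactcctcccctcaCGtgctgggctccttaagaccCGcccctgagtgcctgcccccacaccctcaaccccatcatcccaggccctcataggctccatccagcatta
The Dnmt1 oocyte window held 2 CpGs, and the somatic windows held 12 and 33. Of the Dnmt3l windows the outermost held 6 CpGs and the middle 4. Over all 32851 promoter windows of this length the median was 7 CpGs, with quartiles of 3 and 20. The inner somatic Dnmt1 window therefore lay above the upper quartile and the oocyte window below the lower one, whereas both Dnmt3l windows lay between the quartiles.

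The first question was how the members changed as SCNT embryos went from the activated oocyte to the blastocyst. All 10 passed the filter of a mean of 1 TPM, which left 11867 genes for the test, and a member was called changed where limma, fitted to log2(TPM + 1) of all genes, gave an adjusted p under 0.05 and at least a 2-fold difference. Over 8 steps between neighbouring stages, 27 of 80 gene and step pairs were called, against 21% of all pairs tested. Of these 27 pairs 15 were higher and 12 lower at the later stage. Under quantile normalization the split was 13 and 16. From 6 to 14 hpa 1 of 10 members was called, against 11.1% of all genes, and from 14 hpa to E2C 2 were called, against 5.83%. Activation of the embryo's own genome falls at the 2-cell stage, and 3 members were called from E2C to L2C, against 34.9% of all genes, and 5 from L2C to 4C, against 38.4%. From 4C to 8C 3 members were called, against 19.8%, and from 8C to morula 3, against 12.2%. Morula and ICM differed in 6 members, against 24% of all genes, and morula and TE in 4, against 21.8%. The members' share was thus close to that of all genes from 6 to 14 hpa, at L2C and at 4C. Over longer spans 7 members were called from 6 hpa to 8C, against 68.2% of all genes, 7 from 8C to ICM, against 34.2%, and 6 from 8C to TE, against 35.5%. The median difference over all genes lay between -0.33 (L2C to 4C) and 0.26 (E2C to L2C) on the log2 scale in the steps, and was 0.25 from 6 hpa to 8C. Differences of single members are given before subtraction of that shift.

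**Figure D1:**
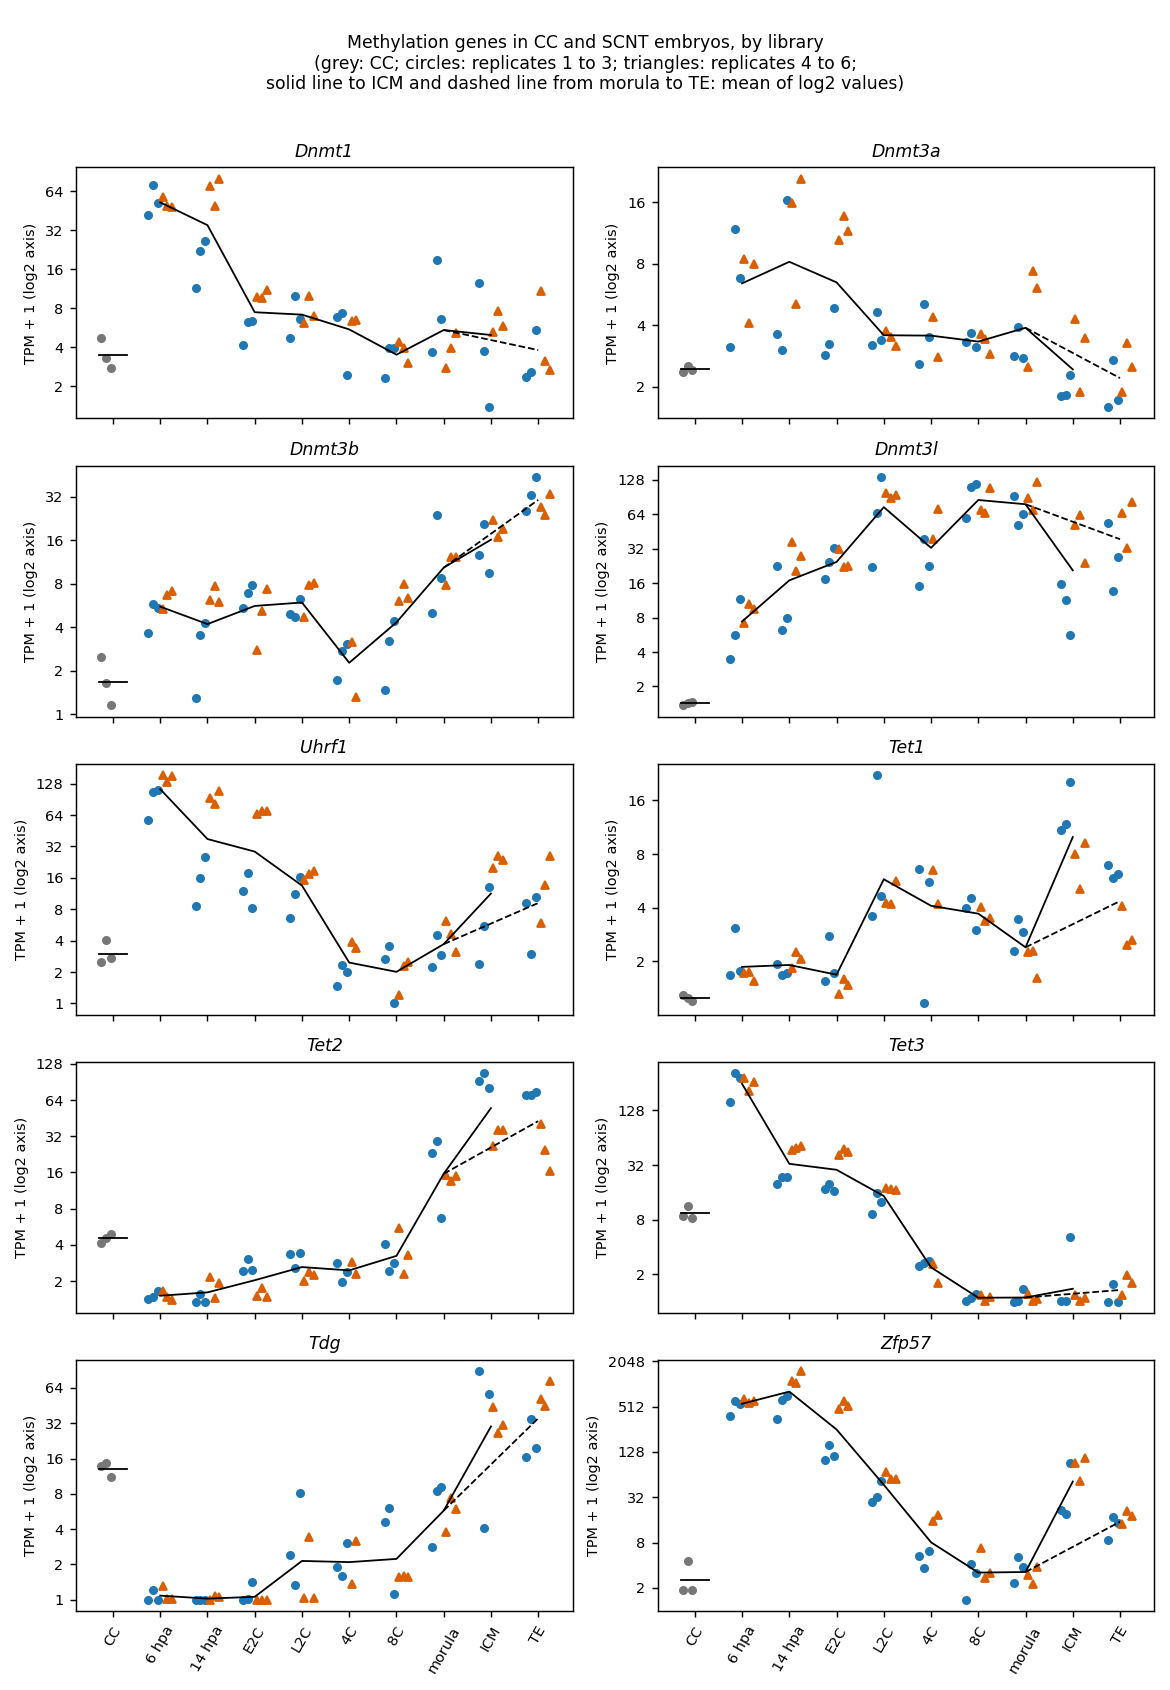
TPM + 1 of each member on a log2 axis in CC (grey, n = 3) and in SCNT embryos by stage (n = 5 at 4C and 6 elsewhere), each point 1 library, circles for replicates 1 to 3 and triangles for replicates 4 to 6. Lines join the means of log2 values, solid to ICM and dashed from morula to TE. Tet3, Uhrf1, Dnmt1 and Zfp57 were highest at 6 or 14 hpa, and Tet2, Tdg and Dnmt3b were highest in the blastocyst.

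**Figure D2:**
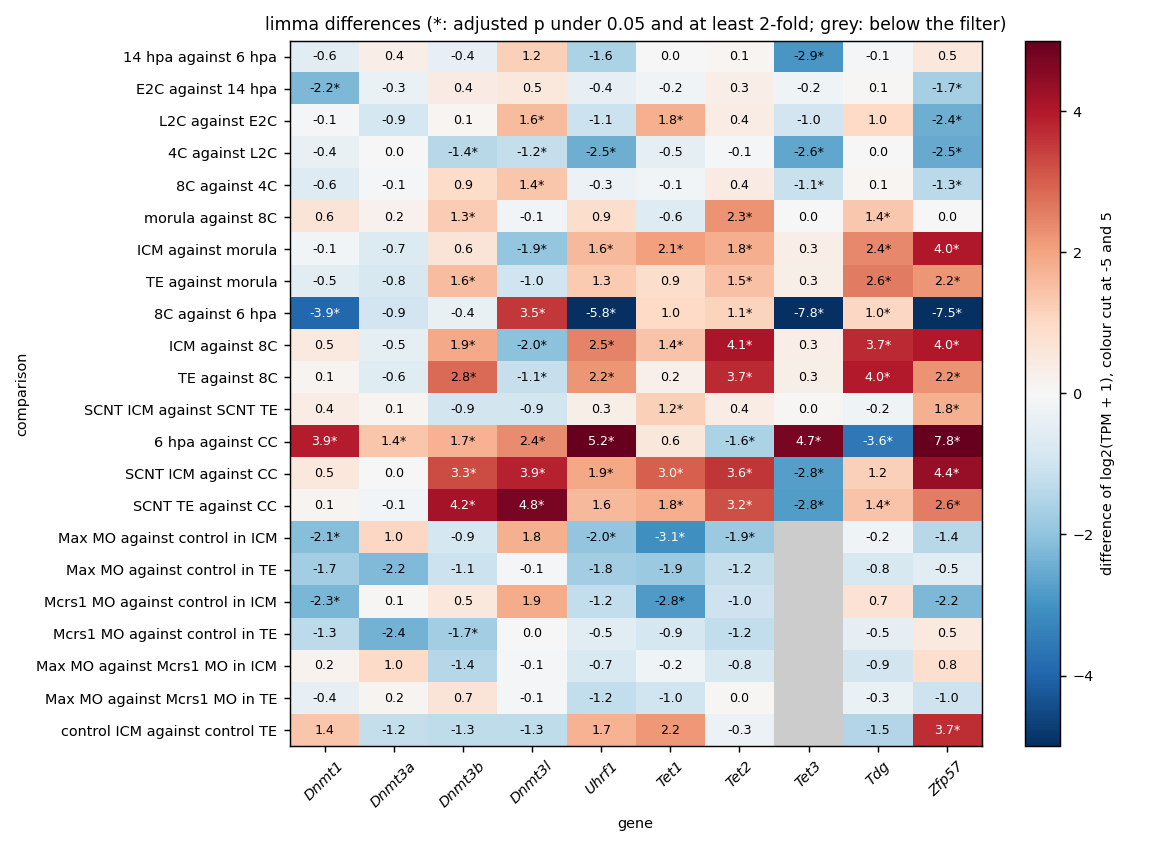
Difference of log2(TPM + 1) from limma for each comparison (rows) and member (columns), in red where the first-named group was higher and in blue where it was lower. An asterisk marks an adjusted p under 0.05 with at least a 2-fold difference, and grey marks Tet3 below the filter of the morpholino set. Tet3 stood at -2.93 from 6 to 14 hpa and Zfp57 at 4.00 from morula to ICM.

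Dnmt1 (chr9:20907206-20959888, minus strand, build mm10 here and below), which copies methylation at replication, was called lower once, at E2C. It stood at 41.1 to 70.0 TPM (median 49.4) at 6 hpa, 10.5 to 78.9 TPM (median 36.7) at 14 hpa and 3.16 to 10.1 TPM (median 6.98) at E2C. Every E2C library was below every 14 hpa library (log2 difference -2.23 ± 0.44 SE, adjusted p = 4.34e-04). This call was lost within replicates 1 to 3 (adjusted p 0.0911). At 14 hpa those libraries held 10.5 to 25.3 TPM and the other 3 held 48.0 to 78.9 TPM. From E2C on the level stayed low, at 1.29 to 3.36 TPM (median 2.94) at 8C and 0.379 to 11.5 TPM (median 4.55) in ICM, and no later step was called. Over the whole span from 6 hpa to 8C Dnmt1 was lower in every library (log2 difference -3.91 ± 0.44 SE, adjusted p = 2.70e-11).

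The outermost end of the deposited Dnmt1 loci moved later than the level fell, between E2C and 4C. StringTie, the assembler the authors used, gives each assembled locus a 5′ end, and an end within 1000 bases of an annotated start was counted there. At 6 hpa, 14 hpa and E2C the outermost end lay at or before the oocyte start in 17 of 18 libraries. At L2C 3 of 6 libraries ended there and the other 3 at the somatic starts, 6909 bases farther in. All 5 libraries of 4C, 4 of 6 of 8C and 3 of 6 of morula ended at the somatic starts, and from 4C to the blastocyst 1 of 29 libraries (an ICM library) ended at the oocyte start. None of 3 CC and none of 12 morpholino libraries did. The locus with the outermost end held medians of 11.1, 7.96 and 3.84 TPM at L2C, 4C and 8C. The largest Dnmt1 locus held 18.5, 15.5 and 8.34 TPM there, so that from L2C on the end need not be that of the largest locus. Which start gave most Dnmt1 RNA at these stages was not tested. A locus that ends exactly at an annotated start may have been copied from the guide annotation, and 4 of the libraries that reached upstream ended within the neighbouring gene S1pr2 on the same strand.

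**Figure D3:**
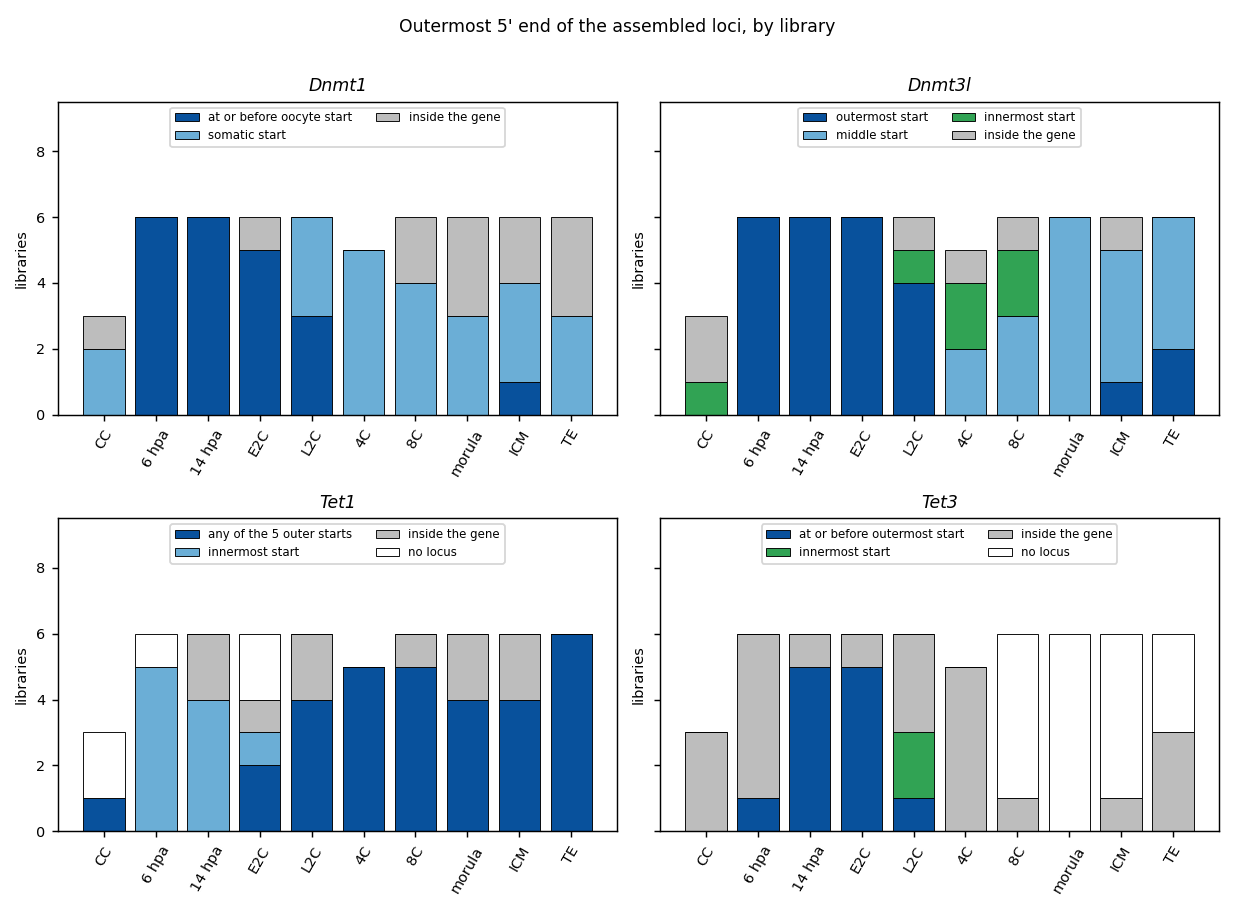
Number of libraries (vertical axis) of CC and each SCNT stage by where the outermost 5′ end of the deposited loci of Dnmt1, Dnmt3l, Tet1 and Tet3 lay, in colours named in each panel, with grey for an end inside the gene and white for no locus. The dark bars of Dnmt1 hold 17 of 18 libraries up to E2C and 1 of 29 from 4C on, and those of Dnmt3l hold 18 of 18 and 3 of 29.

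Uhrf1 (chr17:56303337-56323486, plus strand), the partner that brings DNMT1 to replicated DNA, had its largest step later, from L2C to 4C. It stood at 56.1 to 154 TPM (median 122) at 6 hpa, 7.65 to 107 TPM (median 53.1) at 14 hpa, 7.15 to 68.5 TPM (median 41.0) at E2C and 5.57 to 17.6 TPM (median 14.9) at L2C. The 5 libraries of 4C held 0.481, 1.34, 1.00, 2.88 and 2.39 TPM, all below every L2C library (log2 difference -2.45 ± 0.59 SE, adjusted p = 6.45e-04). At 14 hpa and E2C the libraries numbered 4 to 6 (65.3 to 107 TPM) did not overlap those numbered 1 to 3 (7.15 to 24.6 TPM). With replicates as a block, which the check of pairing allowed for the step from 6 to 14 hpa, Uhrf1 was also called lower at 14 hpa (log2 difference -1.59 ± 0.44 SE, adjusted p = 0.00819) beside Tet3, and Dnmt3l was called higher, so that 3 members rather than 1 were called, against 12.4% of all genes in that fit. Only 2 of 6 libraries of 14 hpa correlated best with their own number, and the part of the split between replicates 1 to 3 and 4 to 6 was not tested. At 8C the level was 0 to 2.56 TPM (median 1.39), with 1 library listed at 0, and in ICM it was 1.37 to 25.1 TPM (median 15.6). The rise from morula to ICM was called (log2 difference 1.61 ± 0.57 SE, adjusted p = 0.0285), but was lost without replicate 3, 4, 5 or 6 and under 3 other alternatives (adjusted p 0.0562 to 0.344). That from 8C to ICM (log2 difference 2.49 ± 0.57 SE, adjusted p = 3.42e-04) was lost within replicates 1 to 3 (adjusted p 0.107).

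The de novo enzymes moved in different directions. Dnmt3a (chr12:3806980-3914443, plus strand), which methylates the growing oocyte's genome, was called in none of the 8 steps. Its level was 2.14 to 10.9 TPM (median 6.37) at 6 hpa, 2.01 to 19.8 TPM (median 9.49) at 14 hpa, 1.85 to 12.7 TPM (median 6.63) at E2C, 2.16 to 3.64 TPM (median 2.43) at L2C and 0.587 to 2.28 TPM (median 1.18) in TE. Neighbouring stages overlapped, also E2C and L2C (log2 difference -0.86 ± 0.40 SE, adjusted p = 0.0857). Its reference row held less RNA than the assembled loci. The largest Dnmt3a locus had 10.1 to 19.3 TPM (median 16.7) at E2C, 28.6 to 63.0 TPM (median 35.4) at L2C and 36.6 to 82.8 TPM (median 42.6) at 4C, against medians of 6.63, 2.43 and 2.51 TPM in the reference row. On the loci every L2C library was thus above every E2C library, in the other direction than the reference row, and the loci were not tested. For the 80 pairs of member and comparison that were called over the whole study, the mean of the largest locus differed in the same direction as the reference row in all 80.

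Dnmt3b (chr2:153649449-153687730, plus strand), the main de novo enzyme of the early embryo, was lowest at 4C and highest in TE. At L2C it stood at 3.69 to 7.05 TPM (median 4.60), and the 5 libraries of 4C held 0.722, 1.74, 2.06, 2.16 and 0.313 TPM. Every 4C library was below every L2C library (log2 difference -1.39 ± 0.39 SE, adjusted p = 0.00316), though the call was lost under quantile normalization and within replicates 1 to 3 (adjusted p 0.153 to 0.187). On the largest Dnmt3b loci 4C (0.864 to 17.9 TPM) and L2C (6.54 to 12.6 TPM) overlapped, and the loci were not tested. The reference row is given below. It then stood at 0.473 to 7.003 TPM (median 4.24) at 8C, 3.99 to 22.8 TPM (median 9.44) in morula, 8.44 to 21.1 TPM (median 17.0) in ICM and 22.9 to 42.8 TPM (median 29.0) in TE. The later called steps were those to morula (log2 difference 1.26 ± 0.37 SE, adjusted p = 0.0172) and from morula to TE (log2 difference 1.56 ± 0.37 SE, adjusted p = 0.00118). The step to morula was lost without replicate 2 and under quantile normalization and within replicates 4 to 6 (adjusted p 0.0632 to 0.202). From 8C to TE no groups overlapped and Dnmt3b rose (log2 difference 2.82 ± 0.37 SE, adjusted p = 1.61e-08).

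Dnmt3l (chr10:78042287-78063622, plus strand), the cofactor of the de novo enzymes, rose at L2C, dipped at 4C and was high again at 8C in its reference row. It stood at 2.45 to 10.6 TPM (median 7.35) at 6 hpa and 16.3 to 31.5 TPM (median 22.5) at E2C. At L2C it was 21.3 to 134 TPM (median 90.1), with 1 library inside the range of E2C (log2 difference 1.59 ± 0.47 SE, adjusted p = 0.00532). The 5 libraries of 4C held 14.1, 37.5, 21.5, 37.9 and 70.2 TPM, overlapping L2C (log2 difference -1.18 ± 0.49 SE, adjusted p = 0.0476), and those of 8C 58.6 to 117 TPM (median 87.5) and thus again overlapping (log2 difference 1.39 ± 0.49 SE, adjusted p = 0.0351). On the largest loci the medians were 108 TPM at L2C, 72.8 TPM at 4C and 93.7 TPM at 8C. There the fall at 4C and the rise at 8C were smaller and overlapped (log2 difference -0.39 and 0.42), and the loci were not tested. All 3 calls on the reference row were unstable. The rise at L2C was lost within replicates 1 to 3 (adjusted p 0.168), the fall at 4C without replicate 1, 3, 4 or 6 and under 5 other alternatives (adjusted p 0.05001 to 0.190) and the rise at 8C without replicate 1, 2, 3 or 6 and under 4 other alternatives (adjusted p 0.0672 to 0.321). Dnmt3l then fell from 49.95 to 121 TPM (median 78.1) in morula to 4.60 to 61.5 TPM (median 18.9) in ICM, with overlap (log2 difference -1.92 ± 0.47 SE, adjusted p = 0.00145), and stood at 12.6 to 80.2 TPM (median 41.7) in TE. With replicates as a block it was also called higher at 14 hpa than at 6 hpa (log2 difference 1.19 ± 0.42 SE, adjusted p = 0.0437).

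The outermost end of its loci moved between L2C and 4C. All 18 libraries of 6 hpa, 14 hpa and E2C and 4 of 6 libraries of L2C ended at the outermost start shown above, against 3 of 29 libraries from 4C to the blastocyst (1 of ICM and 2 of TE). The middle start, 7555 bases farther in, was the end in 6 of 6 morula libraries, in 4 of 6 libraries each of ICM and TE and in all 12 libraries of the morpholino set. The outermost end equalled an annotated start in 6 of 6 morula libraries and in 3 of 6 each of ICM and TE, against 1 of 6 each at 6 hpa, 14 hpa and E2C. In each group of the morpholino set it did so in 1 or 2 of 2 libraries. Such ends may have been copied from the guide annotation. At L2C the level was already high, and 4 of 6 libraries had an end at the outermost start. The locus with the outermost end held 4.47 to 112 TPM (median 59.4) at L2C. The largest locus held 45.7 to 141 TPM (median 108), so that the end need not be that of the largest locus. Which start gave the high level was not tested.

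The TET genes peaked at different stages. Tet3 (chr6:83362374-83441678, minus strand), the enzyme known to oxidize methylation in the zygote, fell first. It stood at 159 to 328 TPM (median 277) at 6 hpa, the highest TPM of any TET gene at any SCNT stage, and at 18.6 to 50.5 TPM (median 34.3) at 14 hpa. Every 14 hpa library was below every 6 hpa library (log2 difference -2.93 ± 0.33 SE, adjusted p = 1.92e-09). At E2C it was 15.7 to 47.8 TPM (median 29.8) and at L2C 8.22 to 16.8 TPM (median 15.4). It fell again in the 5 libraries of 4C, to 1.496, 1.66, 1.78, 1.60 and 0.608 TPM, all below every L2C library (log2 difference -2.61 ± 0.34 SE, adjusted p = 1.16e-08). The largest Tet3 loci of 4C (4.37 to 12.7 TPM) and L2C (9.39 to 96.2 TPM) overlapped and were not tested. At 8C 0.0107 to 0.210 TPM (median 0.108) were left in the reference row, all below 4C (log2 difference -1.11 ± 0.34 SE, adjusted p = 0.0151), though this call was lost without replicate 2 or 4 and within replicates 1 to 3 and within replicates 4 to 6 (adjusted p 0.0141 to 0.0850, with the lowest under 2-fold). From 8C on its reference row stayed under 1 TPM in each SCNT library but ICM replicate 3 (4.11 TPM). No Tet3 locus was assembled in 5 of 6 libraries of 8C, 6 of 6 of morula, 5 of 6 of ICM and 3 of 6 of TE. Where one was assembled, the largest locus held 3.18 TPM at 8C, 37.2 TPM in ICM and 4.66 to 10.8 TPM in TE. Loci at 14 hpa and at E2C reached or passed the outermost annotated Tet3 start in 5 of 6 libraries each, against 1 of 6 libraries each at 6 hpa and L2C. The locus with the outermost end held a median of 18.3 TPM at 6 hpa and 17.6 TPM at 14 hpa. The largest locus held 469 and 67.1 TPM, so that these ends do not show which start most Tet3 RNA used.

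Tet1 (chr10:62804570-62880014, minus strand), known from pluripotent cells, rose at L2C. Its largest loci already held 1.97 to 10.7 TPM at 14 hpa, overlapping 7.28 to 33.4 TPM at L2C. The values that follow are of the reference row unless loci are named. It stood at 0.557 to 2.07 TPM (median 0.728) at 6 hpa and 0.316 to 1.79 TPM (median 0.570) at E2C. The L2C libraries held 2.60 to 21.2 TPM (median 3.43), all above every E2C library (log2 difference 1.78 ± 0.36 SE, adjusted p = 7.50e-05). In morula the level was 0.609 to 2.44 TPM (median 1.29) and in ICM 4.09 to 19.2 TPM (median 9.09), again without overlap (log2 difference 2.05 ± 0.36 SE, adjusted p = 1.59e-05). On the largest loci morula (1.30 to 4.48 TPM) and ICM (4.11 to 73.9 TPM) overlapped, and the loci were not tested. From 8C to ICM the call (log2 difference 1.43 ± 0.36 SE, adjusted p = 0.00120) was lost under quantile normalization and within replicates 4 to 6 (adjusted p 0.00479 to 0.0599, with the lowest under 2-fold). The outermost end of the Tet1 loci lay at the innermost annotated start, 94456 bases inside the outermost, in 5 of 6 libraries at 6 hpa, 4 of 6 at 14 hpa and 1 of 6 at E2C, and in no library from L2C on. That start lies near the 3′ end of the gene, where a short assembled piece of the gene would end as well, so that the ends do not show which start was used.

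Tet2 (chr3:133463677-133544390, minus strand), known for its role in blood cells, had its highest level in the blastocyst. It stood at 0.403 to 0.672 TPM (median 0.475) at 6 hpa and 1.31 to 4.52 TPM (median 2.06) at 8C. Morula libraries held 5.70 to 28.5 TPM (median 14.2), all above every 8C library (log2 difference 2.27 ± 0.34 SE, adjusted p = 4.09e-06). The ICM held 25.4 to 106 TPM (median 57.5), more than morula with overlap (log2 difference 1.81 ± 0.34 SE, adjusted p = 5.72e-05), and so did the TE, with 15.4 to 73.1 TPM (median 54.5) and overlap (log2 difference 1.45 ± 0.34 SE, adjusted p = 0.00109). The step to TE was lost within replicates 4 to 6 (adjusted p 0.0549). In ICM replicates 1 to 3 held 79.7 to 106 TPM and replicates 4 to 6 held 25.4 to 35.4 TPM. The reference row of Tet2 also held less RNA than its loci. Medians of the largest locus were 14.1 TPM at E2C, 9.56 TPM at 8C, 24.9 TPM in morula and 198 TPM in ICM. The reference row had 1.09, 2.06, 14.2 and 57.5 TPM. On the loci 8C and morula overlapped, and the loci were not tested.

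As a share of the summed TPM of the 3 TET genes, Tet3 took a median of 99.5% at 6 hpa, 69.2% at L2C and 2.14% at 8C. Tet1 took 61.0% at 4C and 50.2% at 8C, and Tet2 took 45.9% at 8C and 91.3% in morula. Among the 4 DNMT genes, Dnmt1 took 74.2% at 6 hpa and 2.45% at 8C, where Dnmt3l took 92.6%. These medians are of the reference rows over the libraries of a stage and were not tested. Over the largest loci the medians at 8C were 66.0% for Dnmt3l, 21.4% for Dnmt3a and 6.47% for Dnmt1 among the DNMT genes, and 36.3% for Tet1 and 57.3% for Tet2 among the TET genes. At 4C the locus medians were 29.5% for Tet1, 39.2% for Tet2 and 32.6% for Tet3, so that Tet1 did not lead there. At L2C the locus median of Tet3 was 47.0%. In CC Tet3 took 69.6%, Tet2 27.7% and Tet1 1.72% of the TET sum on the reference rows. On the largest loci the CC medians were 46.5% for Tet3 and 43.2% for Tet2.

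Tdg (chr10:82629838-82650494, plus strand), the glycosylase that removes oxidized bases, was at or near 0 before L2C and rose into the blastocyst. It was listed at 0 in 4 of 6 libraries at 14 hpa and in 4 of 6 at E2C, and no locus was assembled in 5 of 6 libraries at 6 hpa, 6 of 6 at 14 hpa and 5 of 6 at E2C. At 8C it stood at 0.127 to 5.09 TPM (median 0.587), and in morula at 1.84 to 8.16 TPM (median 5.65), with overlap (log2 difference 1.37 ± 0.48 SE, adjusted p = 0.0470). That call was lost without replicate 3, 4, 5 or 6 and under 5 other alternatives (adjusted p 0.0571 to 0.583). The ICM held 3.13 to 87.2 TPM (median 36.1) and overlapped morula (log2 difference 2.38 ± 0.48 SE, adjusted p = 1.26e-04), whereas the TE, with 15.5 to 71.7 TPM (median 38.7), did not (log2 difference 2.61 ± 0.48 SE, adjusted p = 3.05e-05). Within replicates 1 to 3 both calls were lost (adjusted p 0.0503 and 0.119). From 8C the rise was called to ICM (log2 difference 3.75 ± 0.48 SE, adjusted p = 6.69e-09) and to TE (log2 difference 3.98 ± 0.48 SE, adjusted p = 1.32e-09). The level of Tdg is uncertain, because the processed pseudogene Gm9855 had 1.06 to 1.11 times the TPM of Tdg in the 40 libraries with Tdg at 1 TPM or more, and reads of this pair cannot be told apart here.

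Zfp57 (chr17:37001163-37010729, plus strand), which protects imprints, had the highest level of the members and the widest range. It stood at 381 to 649 TPM (median 598) at 6 hpa and 353 to 1505 TPM (median 887) at 14 hpa. It then fell over 4 successive steps. At E2C it was 101 to 602 TPM (median 314), with overlap (log2 difference -1.67 ± 0.44 SE, adjusted p = 0.0106), and at L2C 26.8 to 69.1 TPM (median 53.2), below every E2C library (log2 difference -2.45 ± 0.44 SE, adjusted p = 1.11e-05). The 5 libraries of 4C held 4.28, 2.65, 5.12, 14.3 and 17.8 TPM, below every L2C library (log2 difference -2.54 ± 0.46 SE, adjusted p = 1.02e-05), and 8C held 0.386 to 5.69 TPM (median 2.18), with overlap (log2 difference -1.34 ± 0.46 SE, adjusted p = 0.0306). The step to E2C was lost without replicate 3 and with only the compared groups fitted (adjusted p 0.0509 to 0.104), and that to 8C without replicate 3, 4, 5 or 6 and under 3 other alternatives (adjusted p 0.0563 to 0.283). In morula Zfp57 was at 1.28 to 4.14 TPM (median 2.38). In ICM it was at 18.2 to 107 TPM (median 70.7), above every morula library (log2 difference 4.00 ± 0.44 SE, adjusted p = 5.88e-10), and in TE at 7.70 to 19.99 TPM (median 15.0), also above (log2 difference 2.22 ± 0.44 SE, adjusted p = 1.11e-04). The E2C libraries split by number, with 101 to 156 TPM in replicates 1 to 3 and 472 to 602 TPM in replicates 4 to 6.

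Within SCNT blastocysts, ICM and TE were compared for differences between the lineages. Of the 10 members 2 were called, both higher in ICM, while 5.34% of all genes were called. Tet1 was at 4.09 to 19.2 TPM (median 9.09) in ICM and 1.49 to 5.99 TPM (median 4.00) in TE, with overlap (log2 difference 1.19 ± 0.36 SE, adjusted p = 0.0370). Zfp57 was at 18.2 to 107 TPM (median 70.7) in ICM and 7.70 to 19.99 TPM (median 15.0) in TE, also with overlap (log2 difference 1.78 ± 0.44 SE, adjusted p = 0.00855). The Tet1 call was lost without replicate 1, 3, 4, 5 or 6 and under 6 other alternatives (adjusted p 0.0541 to 0.484), and the Zfp57 call without replicate 3 or 6 and within replicates 1 to 3 and with only the compared groups fitted (adjusted p 0.0506 to 0.196). With replicates as a block, which the check of pairing allowed here too, both stayed called, with adjusted p = 0.0299 for Tet1 and 4.62e-04 for Zfp57. In its reference row Dnmt3b did not overlap between the lineages, with the lowest TE library at 22.9 TPM and the highest ICM library at 21.1 TPM. It missed the threshold (log2 difference -0.92 ± 0.37 SE, adjusted p = 0.150). The largest Dnmt3b loci overlapped, with 19.0 to 80.4 TPM in ICM and 25.4 to 51.6 TPM in TE (log2 difference -0.24), and were not tested. TE markers summed to 2052 to 8522 TPM in ICM, and their part in these differences was not tested.

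The donor cells were compared with SCNT embryos soon after activation and at the blastocyst stage, to see how far the members' RNA departed from that of the donor. The 3 comparisons share the CC libraries. At 6 hpa 9 of 10 members were called against CC, 7 higher and 2 lower, where 61.4% of all genes were called and the median difference over all genes was -0.28 on the log2 scale. In ICM 7 were called (6 higher, 1 lower) against 37.9% of all genes, and in TE 7 (6 higher, 1 lower) against 35.8%.

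Tet3 stood between the extremes in CC. The 3 CC libraries held 7.90, 10.4 and 7.32 TPM in the reference row, below every 6 hpa library (log2 difference 4.74 ± 0.39 SE, adjusted p = 1.48e-15) and above every ICM library (log2 difference -2.77 ± 0.39 SE, adjusted p = 5.56e-08). On the largest Tet3 loci CC (21.1 to 35.0 TPM) and ICM (0 to 37.2 TPM) overlapped, and the loci were not tested. Zfp57 had 0.895, 3.56 and 0.890 TPM in CC and was higher at 6 hpa (log2 difference 7.79 ± 0.54 SE, adjusted p = 1.46e-18) and in ICM (log2 difference 4.35 ± 0.54 SE, adjusted p = 1.55e-09). Uhrf1 had 1.48, 3.03 and 1.70 TPM in CC and was higher at 6 hpa (log2 difference 5.24 ± 0.68 SE, adjusted p = 2.17e-09). In ICM it was above CC as well (log2 difference 1.92 ± 0.68 SE, adjusted p = 0.0207), a call lost without replicate 4 or 5, CC replicate 1 or CC replicate 3 and within replicates 1 to 3 and with only the compared groups fitted (adjusted p 0.0503 to 0.273). Dnmt1 had 3.68, 2.28 and 1.76 TPM in CC, was higher at 6 hpa (log2 difference 3.91 ± 0.53 SE, adjusted p = 5.66e-09) and was not called against CC in ICM (log2 difference 0.51 ± 0.53 SE, adjusted p = 0.498).

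Tet2 and Tdg were the members lower at 6 hpa than in CC. Tet2 had 3.15, 3.56 and 3.97 TPM in CC, against 0.403 to 0.672 TPM (median 0.475) at 6 hpa (log2 difference -1.59 ± 0.41 SE, adjusted p = 7.46e-04), and was higher than CC in ICM (log2 difference 3.59 ± 0.41 SE, adjusted p = 2.05e-10). Tdg had 12.7, 13.5 and 10.0 TPM in CC and was lower at 6 hpa (log2 difference -3.58 ± 0.57 SE, adjusted p = 3.06e-07). In TE it was above CC (log2 difference 1.44 ± 0.57 SE, adjusted p = 0.0431), a call lost without replicate 4, 5 or 6, CC replicate 1, CC replicate 2 or CC replicate 3 and under 4 other alternatives (adjusted p 0.0643 to 0.524). The members that CC barely held were Dnmt3l (0.371, 0.448 and 0.478 TPM), Tet1 (0.297, 0.242 and 0.198 TPM) and Dnmt3b (1.48, 0.655 and 0.152 TPM), and all 3 were higher in ICM and in TE. In ICM they differed from CC in the order Dnmt3l (log2 difference 3.85 ± 0.56 SE, adjusted p = 1.06e-07), Dnmt3b (log2 difference 3.26 ± 0.45 SE, adjusted p = 3.18e-08) and Tet1 (log2 difference 3.001 ± 0.43 SE, adjusted p = 6.76e-08).

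The morpholino set asked which of these genes depend on Max and Mcrs1 in blastocysts made by fertilization. The targets were checked first. Max RNA was 38.0 and 8.42 TPM in control ICM and 6.82 and 0.443 TPM in Max MO ICM (log2 difference -2.51 ± 0.80 SE, adjusted p = 0.0397), and 34.5 and 28.5 TPM in control TE against 16.3 and 8.68 TPM in Max MO TE (log2 difference -1.32 ± 0.80 SE, adjusted p = 0.390). Mcrs1 RNA was 253 and 310.1 TPM in control ICM and 86.8 and 73.4 TPM in Mcrs1 MO ICM (log2 difference -1.80 ± 0.21 SE, adjusted p = 0.00333), and 219 and 294 TPM in control TE against 41.1 and 45.5 TPM in Mcrs1 MO TE (log2 difference -2.53 ± 0.21 SE, adjusted p = 8.68e-04). Both morpholinos were compared with the same control libraries. Tet3 did not pass the filter here, and 9 members were tested.

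**Figure D4:**
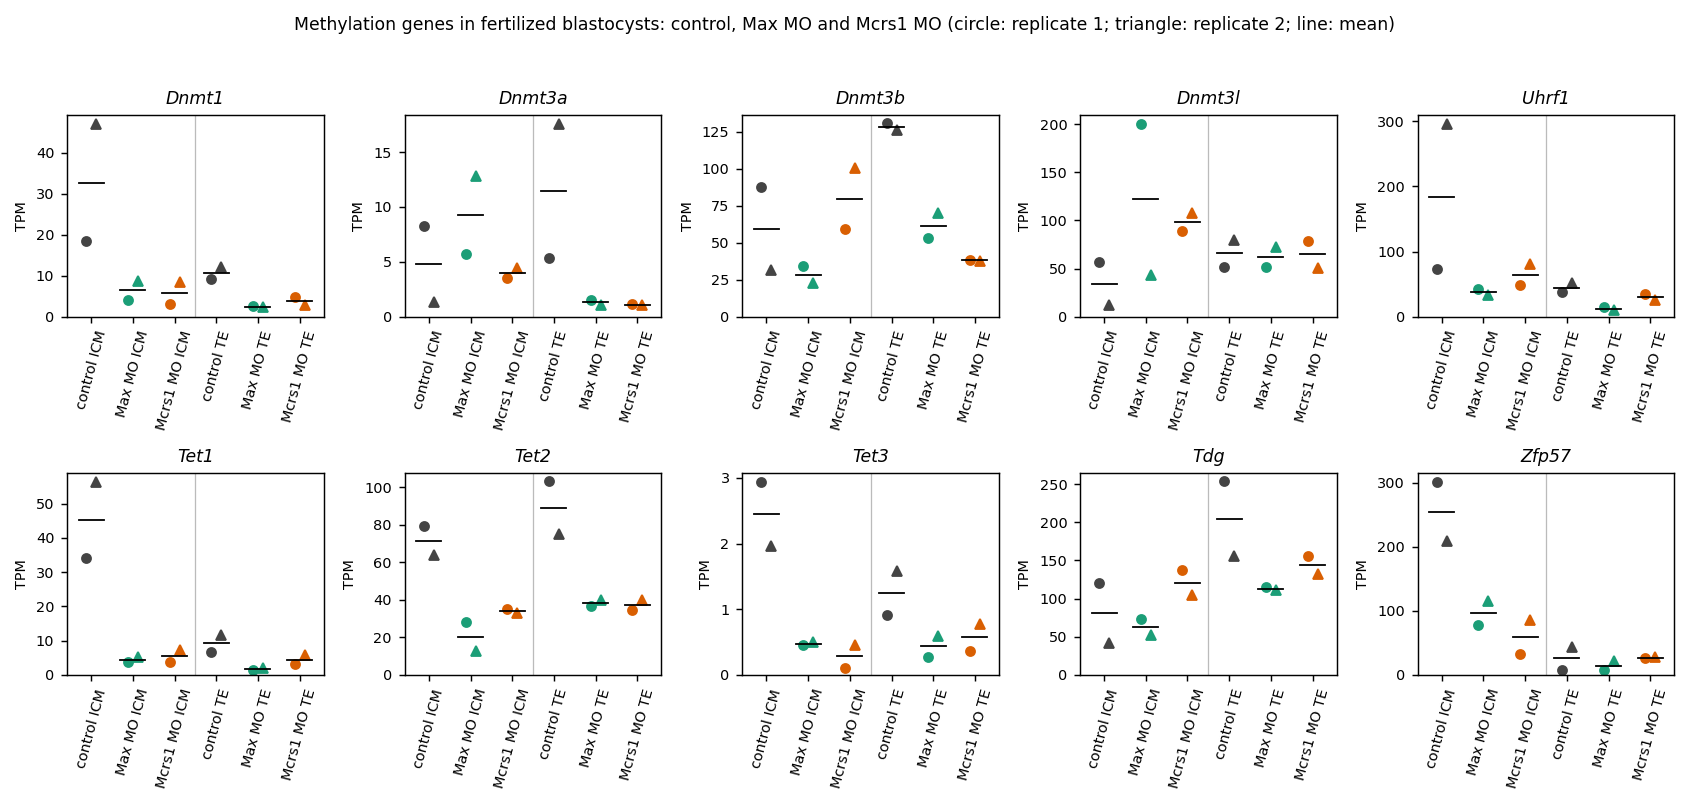
TPM of each member on a linear axis from 0 in ICM and TE of control, Max MO and Mcrs1 MO blastocysts, each point 1 library (circle for replicate 1, triangle for replicate 2) and each line the mean. The points for Tet1 and Dnmt1 in Max MO ICM and Mcrs1 MO ICM lie below both control ICM points.

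Over both lineages and both morpholinos 7 of 36 gene and comparison pairs were called, all lower than control, against 10.3% of all pairs tested. Calls over all genes were 970 higher and 1689 lower in Max MO ICM and 117 and 163 in Max MO TE. They were 547 and 584 in Mcrs1 MO ICM and 199 and 371 in Mcrs1 MO TE. In Max MO ICM 4 of 9 members were called against 23.7% of all genes, and the median difference of all genes was -0.21 on the log2 scale. Tet1 was at 34.2 and 56.2 TPM in control ICM and 3.71 and 5.19 TPM in Max MO ICM (log2 difference -3.05 ± 0.53 SE, adjusted p = 0.00289). Tet2 was at 79.3 and 63.7 TPM in control and 28.2 and 12.6 TPM in Max MO (log2 difference -1.86 ± 0.36 SE, adjusted p = 0.00464). Neither gene's groups overlapped, and both calls held in all 20 alternatives. Dnmt1 was at 18.4 and 47.0 TPM in control and 4.06 and 8.79 TPM in Max MO (log2 difference -2.12 ± 0.62 SE, adjusted p = 0.0278). Uhrf1 was at 72.9 and 295 TPM in control and 42.0 and 32.7 TPM in Max MO (log2 difference -1.96 ± 0.55 SE, adjusted p = 0.0228). The Dnmt1 call was lost without control ICM replicate 2 or Max MO ICM replicate 1 and under 3 other alternatives (adjusted p 0.0642 to 0.161), and the Uhrf1 call without control ICM replicate 2, Max MO ICM replicate 1 or Max MO ICM replicate 2 and with all genes above 0 TPM tested and with each lineage fitted alone (adjusted p 0.0704 to 0.114). The other 5 members, Dnmt3a, Dnmt3b, Dnmt3l, Tdg and Zfp57, were not called.

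In Mcrs1 MO ICM 2 of 9 members were called against 10.1% of all genes. Tet1 was at 3.84 and 7.16 TPM (log2 difference -2.84 ± 0.53 SE, adjusted p = 0.0110) and Dnmt1 at 3.12 and 8.46 TPM (log2 difference -2.29 ± 0.62 SE, adjusted p = 0.0386). The Tet1 call was lost without Mcrs1 MO ICM replicate 1 and with each lineage fitted alone (adjusted p 0.0815 to 0.0930). The Dnmt1 call was lost without any single library other than control ICM replicate 1 and the Max MO ICM libraries (adjusted p 0.0539 to 0.230), and under 4 other alternatives. In Mcrs1 MO TE Dnmt3b was called (1 of 9, against 5.08% of all genes). It was at 131 and 126 TPM in control TE and 38.4 and 37.9 TPM in Mcrs1 MO TE, without overlap (log2 difference -1.72 ± 0.43 SE, adjusted p = 0.0419). This call was lost in 12 of 20 alternatives, all but 2 of them with 1 library left out (adjusted p 0.0527 to 0.212).

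In Max MO TE limma called no member, against 2.5% of all genes, although 6 of 9 had an unadjusted p under 0.05, against 20.4% of all genes. Dnmt3a was at 5.36 and 17.6 TPM in control TE and 1.55 and 1.11 TPM in Max MO TE, and Uhrf1 at 37.5 and 51.1 and 14.8 and 10.1 TPM. For both genes the groups did not overlap. The adjusted p was above 0.05 for Dnmt3a (log2 difference -2.23 ± 0.75 SE, adjusted p = 0.125) and for Uhrf1 (log2 difference -1.76 ± 0.55 SE, adjusted p = 0.103).

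The number of calls moved with control ICM replicate 1, the library with TE markers near the TE level. In total more member pairs were called without control ICM replicate 1 or without control ICM replicate 2. The share of all genes called rose as well, in each comparison with control. In Max MO ICM without replicate 1, Tet1 (-3.40 ± 0.61 SE, adjusted p = 0.00255), Tet2 (-1.70 ± 0.42 SE, adjusted p = 0.0110), Dnmt1 (-2.77 ± 0.66 SE, adjusted p = 0.00991) and Uhrf1 (-2.96 ± 0.40 SE, adjusted p = 6.81e-04) were called, against 30.3% of all genes. Dnmt3l was then also called, in the other direction (2.89 ± 0.67 SE, adjusted p = 0.00892). Without control ICM replicate 2 the calls in Max MO ICM were Tet1 (-2.70 ± 0.62 SE, adjusted p = 0.00697), Tet2 (-2.01 ± 0.41 SE, adjusted p = 0.00412) and Dnmt3b (-1.61 ± 0.35 SE, adjusted p = 0.00566), all lower and against 30.2% of all genes, whereas Dnmt1 (-1.47 ± 0.67 SE, adjusted p = 0.110), Uhrf1 (-0.96 ± 0.41 SE, adjusted p = 0.0888) and Dnmt3l (0.70 ± 0.66 SE, adjusted p = 0.426) were not called. Dnmt3b without replicate 1 was not called (-0.18 ± 0.36 SE, adjusted p = 0.724). In Mcrs1 MO ICM without that library 6 members were called against 22.4% of all genes, with Tet1, Dnmt1 and Uhrf1 lower. Dnmt3l (2.95 ± 0.67 SE, adjusted p = 0.0105), Tdg (1.48 ± 0.32 SE, adjusted p = 0.00869) and Dnmt3b (1.26 ± 0.36 SE, adjusted p = 0.0265) were higher there. Without control ICM replicate 2 Tet1 alone was called in Mcrs1 MO ICM (-2.49 ± 0.62 SE, adjusted p = 0.0236), against 12.3% of all genes, and Dnmt3l (0.77 ± 0.66 SE, adjusted p = 0.441), Tdg (-0.0038 ± 0.32 SE, adjusted p = 0.996) and Dnmt3b (-0.18 ± 0.35 SE, adjusted p = 0.754) were not. Each of these contrasts then rests on a single control ICM library, taken to vary like the other groups. In TE the estimates stay the same when a control ICM library is left out, since TE libraries are not touched, and only the pooled spread shrinks. In Max MO TE 5 members were then called, all lower (Dnmt3a, Dnmt3b, Tet1, Tet2 and Uhrf1), and in Mcrs1 MO TE 3 (Dnmt3a, Dnmt3b and Tet2), against 7.2% and 11.7% of all genes without replicate 1. Among the ICM libraries TE markers summed to 2794 and 5936 TPM in Max MO and to 11661 and 8161 TPM in Mcrs1 MO. ICM markers summed to 1487 and 2044 TPM in control ICM, 1410 and 1374 TPM in Max MO ICM and 523 and 1111 TPM in Mcrs1 MO ICM. Nanog, a gene of the pluripotent epiblast, was at 561 and 639 TPM in control ICM, 224 and 284 TPM in Max MO ICM and 96.9 and 383 TPM in Mcrs1 MO ICM. Sox17, a gene of the primitive endoderm, was at most 0.133 TPM in control ICM, 32.5 and 178 TPM in Max MO ICM and 22.5 and 38.2 TPM in Mcrs1 MO ICM. The part of any of these markers in the members' differences was not tested.

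Max MO and Mcrs1 MO were then set against each other. No member was called in ICM or TE by limma, against 1.81% and 0.0267% of all genes, and 3 members in ICM and 1 in TE had an unadjusted p under 0.05, against 19.5% and 5.5% of all genes. Whether a morpholino acted differently in ICM and TE was tested as an interaction. It was called for no member and for 0 of all genes, with 1 member under an unadjusted p of 0.05 for Max MO and 4 for Mcrs1 MO, against 13.1% and 8.66% of all genes. In control blastocysts Zfp57 was higher in ICM (300.3 and 209 TPM) than in TE (7.48 and 43.9 TPM), the groups not overlapping (log2 difference 3.69 ± 0.73 SE, adjusted p = 0.0308). The call was lost without Max MO ICM replicate 1, control TE replicate 1, Mcrs1 MO TE replicate 1 or Mcrs1 MO TE replicate 2 and with all genes above 0 TPM tested (adjusted p 0.0508 to 0.182). It was 1 of 9 members called, against 2.92% of all genes, and without control ICM replicate 1 there were 7 against 20.5%. Tet3, below the filter, was at 2.93 and 1.96 TPM in control ICM, 0.454 and 0.501 TPM in Max MO ICM and 0.109 and 0.462 TPM in Mcrs1 MO ICM. The exact two-sided permutation test gave p = 0.333 in each of the 4 comparisons with control, the smallest p that 2 against 2 libraries allow.

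Because MAX binds the E-box CACGTG together with its partners, the members' promoter windows were searched for these letters, which read the same on both strands. They stood in 3 of 19 windows of the members and in 7.15% of all 32851 windows. The pair with the motif at or near a start that the loci used is shown, read on the plus strand in the same build, with the E-box in capitals, for Tdg (chr10:82629588-82629887) and the middle start of Dnmt3l (chr10:78049592-78049891). The third was at an inner start of Dnmt3a (chr12:3891494-3891793).
Tdg start: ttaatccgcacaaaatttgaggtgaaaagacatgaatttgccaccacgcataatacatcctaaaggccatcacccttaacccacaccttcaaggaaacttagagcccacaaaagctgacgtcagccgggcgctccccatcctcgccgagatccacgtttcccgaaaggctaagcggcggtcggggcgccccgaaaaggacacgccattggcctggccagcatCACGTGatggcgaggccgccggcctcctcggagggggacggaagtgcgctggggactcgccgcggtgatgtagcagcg
Dnmt3l middle start: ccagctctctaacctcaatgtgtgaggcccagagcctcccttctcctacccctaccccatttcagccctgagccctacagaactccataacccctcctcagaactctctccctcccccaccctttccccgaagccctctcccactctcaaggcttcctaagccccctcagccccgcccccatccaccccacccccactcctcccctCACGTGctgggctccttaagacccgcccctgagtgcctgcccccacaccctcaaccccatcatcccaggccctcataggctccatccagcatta
The motif began 28 bases before the Tdg start and 44 bases before the Dnmt3l start. Tdg and Dnmt3l were not called lower in Max MO, and the RefSeq windows of Dnmt1, Uhrf1, Tet1 and Tet2 held no CACGTG. The Tet1 window lay at start site 4 of the 6 annotated. Binding of MAX was not tested for any member, and the windows say nothing of MAX elsewhere in these genes.

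A list of 29 genes that work with the members gave the pathway around them. It held partners of UHRF1 and DNMT1, readers of methylated DNA, base excision repair, imprint protection and the supply of methyl groups, and 25 passed the filter. Over the 8 SCNT steps 43 of 200 gene and step pairs were called, 21 higher and 22 lower, against 21% of all gene and step pairs tested. From 6 hpa to 8C the repair genes went both ways, with Apex1, an endonuclease (log2 difference 5.36 ± 0.36 SE, adjusted p = 8.01e-19), higher and Neil3, a glycosylase (log2 difference -8.72 ± 0.43 SE, adjusted p = 1.49e-24), lower. Mat2a, which makes the methyl donor, rose over this span (log2 difference 3.83 ± 0.43 SE, adjusted p = 3.59e-11) whereas Mat2b, its regulatory subunit, fell (log2 difference -3.60 ± 0.30 SE, adjusted p = 1.51e-15). Against CC, Dppa3, which guards maternal methylation, was higher at 6 hpa (log2 difference 12.37 ± 0.28 SE, adjusted p = 6.76e-40).

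In the morpholino comparisons 13 of 100 partner pairs were called, 2 higher and 11 lower, against 10.3% over all genes tested. Mbd1, a reader of methylated CpG, was lower in Max MO ICM (log2 difference -1.74 ± 0.44 SE, adjusted p = 0.0155), Mcrs1 MO ICM (log2 difference -2.15 ± 0.44 SE, adjusted p = 0.0148) and Mcrs1 MO TE (log2 difference -1.87 ± 0.44 SE, adjusted p = 0.0342). Lig3, a DNA ligase of repair, was lower in Max MO ICM (log2 difference -1.85 ± 0.33 SE, adjusted p = 0.00328) and Max MO TE (log2 difference -1.45 ± 0.33 SE, adjusted p = 0.0439). Dppa3 was the partner called higher, in Max MO ICM (log2 difference 1.96 ± 0.26 SE, adjusted p = 0.00105) and Mcrs1 MO TE (log2 difference 1.39 ± 0.26 SE, adjusted p = 0.0174). Between SCNT ICM and TE, Mbd2, another reader, was called, lower in ICM (log2 difference -1.75 ± 0.41 SE, adjusted p = 0.00480).

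The genes most like each member over CC and the 9 SCNT stages were ranked by Pearson's r of group means of log2 values among 7918 genes with a mean of at least 5 TPM, as a description over 10 groups. The closest to Tet3 were Stbd1 (r = 0.988) and Atp2c1 (r = 0.987), and to Tet2 Zfp64 (r = 0.984) and Egfl7 (r = 0.982). Dnmt1 was followed by Ythdc1 (r = 0.983), Zfp57 by Oas1e (r = 0.980), Dnmt3b by Gm4926 (r = 0.980), Uhrf1 by Ccdc14 (r = 0.977), Dnmt3l by Rpgrip1 (r = 0.977) and Dnmt3a by Tnpo1 (r = 0.966). Tet1 had the weakest match, Iws1 (r = 0.925). Tdg was matched by its copy Gm9855 (r = 1.000) and then by Sema4b (r = 0.982).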

How the data were processed

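RNA of 68 mouse libraries (10 blastomeres per reaction, polyadenylated RNA, Smart-seq2, paired-end reads) was measured as 1 gene table per library. Per the labels and the study's methods the authors trimmed reads with cutadapt 1.16, aligned them to mm10 with HISAT2 and assembled and quantified genes with StringTie. The submitters' notes also name Cufflinks and deepTools. The deposited TPM is a signal scaled to a fixed total over the loci assembled in that library, with the reference genes listed beside those loci and overlapping them, so that the reference genes have no fixed total. The deposited FPKM and coverage were used only to estimate aligned bases, 1.00 to 5.17 gigabases per library. Counts were not used here, so no counting interval is given.

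TPM of rows with 1 symbol were summed, and log2(TPM + 1) of genes with a mean of at least 1 TPM was fitted with limma 3.58.1 (R 4.3.3) and Benjamini-Hochberg adjustment, in separate fits for SCNT embryos (11867 genes), CC with SCNT embryos (12084) and the morpholino set (11219). Differences are on this scale and understate changes of low genes. A call needed an adjusted p under 0.05 and a 2-fold difference. Tests are two-sided. Tested on simulated data, the fit recovered 75.5% of 200 genes changed by 2 on the log2 scale from 6 to 14 hpa, 60.5% between CC and 6 hpa and 58.5% in Max MO ICM. Tables and figures used Python 3.11.15 with scipy 1.17.1, pandas 2.3.3 and numpy 2.4.6, and matplotlib 3.10.9. Locus ends were set against annotated GENCODE and RefSeq starts.

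The members and lists were chosen with earlier results of these data known. All 10 members are named, together with up to 3 partner genes per direction and comparison with the largest change and, for each member, the 2 genes most like it.

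Alternatives were another pseudocount, other filters, other scalings, the largest row of each gene, the replicate number as a block, each library or replicate number left out, SCNT replicates 1 to 3 or 4 to 6 alone, and narrower fits. Counts at starts use a tolerance of 1000 bases. One of 200 bases, and printing those 2 fits beside calls they end, were chosen after seeing the data. Same-numbered libraries deviated together in all 6 pairs between 6 and 14 hpa (r across genes 0.142 to 0.390) and in all 6 pairs of SCNT ICM and TE (0.131 to 0.300), but not in all pairs of the other stage comparisons.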

Additional observations from a re-analysis of the deposited data

Results flagged for a closer look

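In 10 of 90 groups of 4 to 6 libraries, 1 library lay far from the others of its group by Dixon's test, which chance gives in about 1 in 20 groups. Dnmt1 was at 1.43 TPM in 4C replicate 3, against 5.32 to 6.34 TPM in the other 4C libraries. At 6 hpa replicate 1 was low for 2 members, with Uhrf1 at 56.1 TPM against 106 to 154 TPM and Zfp57 at 381 TPM against 562 to 649 TPM.

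Tet1 stood apart in 4 groups, each time in replicate 2. It was high at 6 hpa (2.07 TPM against 0.557 to 0.762 TPM), at E2C (1.79 TPM against 0.316 to 0.724 TPM) and at L2C (21.2 TPM against 2.60 to 4.65 TPM). At 4C the same number was low, at 0.164 TPM against 3.19 to 5.60 TPM.

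Tet3 was low in 4C replicate 5 (0.608 TPM against 1.496 to 1.78 TPM) and high in ICM replicate 3 (4.11 TPM against 0.0126 to 0.183 TPM). Tdg was at 0.404 TPM in E2C replicate 3, where the other libraries held 0 to 0.0132 TPM. The part of single libraries in these values was not tested.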

How the results depend on the processing

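Of 80 called pairs of member and comparison 49 were called in every alternative and 31 were lost in at least 1, on the adjusted p or on the 2-fold criterion, and none reversed. The count over the SCNT steps (27) stayed between 18 and 31 in the alternatives. Between SCNT ICM and TE 2 members were called. With a pseudocount of 0.1, with all genes above 0 TPM, with a mean of at least 5 TPM, with TPM rescaled over reference genes or with quantile normalization there was 1. Within replicates 1 to 3 or with only the compared groups fitted there were 0, and leaving out 1 replicate number gave 0 to 2. Over the morpholino comparisons 7 pairs were called, against 4 with quantile normalization, 11 with each lineage fitted alone and 4 to 19 with 1 library left out. Between Max MO and Mcrs1 MO 0 members were called, against 0 to 1 with 1 library left out (1 without control ICM replicate 1 or 2, Dnmt3b). For responses that differ between lineages 0 were called, against 0 to 3 with 1 library left out. Between control ICM and TE 1 member was called, against 0 with all genes above 0 TPM tested, 2 with rescaled TPM or quantile normalization and 0 to 7 with 1 library left out. The cause was not tested.

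With the replicate number as a block 31 SCNT step pairs were called in place of 27, 8 morpholino pairs in place of 7 and 3 members in place of 1 between control ICM and TE. The shares over all genes were 22.6%, 9.75% and 3.23% with the block, against 21%, 10.3% and 2.92% without it. From 6 to 14 hpa, where same-numbered libraries deviated together, the block gave 3 calls in place of 1, and between SCNT ICM and TE it changed no call. In each of these comparisons 2 of 6 libraries of 14 hpa or of ICM correlated best with the library of their own number, and the part of the split between replicates 1 to 3 and 4 to 6 in this was not tested. With a tolerance of 200 bases the 17 Dnmt1 loci counted at or before the oocyte start up to E2C were 17 as well. In the morpholino set the correlation of same-numbered libraries was -0.04 to 0.06 against control and 0.13 between control ICM and TE. Read counts are not given, so values near 0 TPM cannot be told from absence.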
